A study of Mus musculus with 12 samples.

Results

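Short stretches of H3K27me3, autosomal regions of 1.5 kb or less, were examined in mouse mesenchymal stem cells (MSCs), precursors of the bone, fat and cartilage lineages. They were chosen by length alone, from the first to the last base of each deposited region, and numbered 1372 of 27413 autosomal regions and of 28047 regions in all. H3K27me3 was profiled by CUT&RUN, in which an antibody directs a nuclease to a histone mark and the released DNA is sequenced. The MSCs came from young mice of 3 to 5 months or old mice of 18 to 22 months, and all were grown at 2% oxygen, with 3 H3K27me3 libraries per age. The cells of each sample were divided between H3K27ac and H3K27me3 antibodies, so 12 libraries were made in all. Strain and sex of the animals, and whether a sample was 1 animal or a pool, were not given in the sources used here, and p-values therefore measure the spread between these cultures.

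H3K27me3, trimethylation of lysine 27 of histone H3, is deposited by Polycomb repressive complex 2 and marks genes kept silent. The complex also binds the mark that it makes, which lets the modification spread from nucleation sites, often CpG islands, into broad domains over developmental and lineage genes. H3K27ac, acetylation of the same residue, marks active promoters and enhancers and cannot occupy the same histone tail.

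The H3K27me3 libraries held 3622108 to 9947515 mapped reads, and old replicate 2 was the shallowest. The cell label was compared with marker genes through their transcription start sites (TSSs), each with 1 kb on either side. H3K27ac regions met these windows at 10 of 10 mesenchymal stromal genes. They did so at 2 of 9 blood and macrophage genes (Csf1r and Cd68) and 1 of 4 endothelial genes (Pecam1). H3K27me3 regions met the windows of 1 stromal gene (Nt5e), 4 blood and macrophage genes and 3 endothelial genes. Short H3K27me3 regions met the windows of 0 of these genes. No batch or run date stood in the labels, so no value within batches could be given.

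The sequences of 6 members are shown to give the range of CpG content among them. Each is the central 300 bases of the member on GRCm38, plus strand, with CpG dinucleotides in capitals. The first pair lay beside domains in young cells and held the largest falls with age, the second pair held the most reads per kb, and the third pair were the CpG-richest members at promoters. The names are those of the gene that holds the midpoint or, for Adgb and Rchy1, of the nearest protein-coding TSS.
Adgb chr10:10204601-10204900: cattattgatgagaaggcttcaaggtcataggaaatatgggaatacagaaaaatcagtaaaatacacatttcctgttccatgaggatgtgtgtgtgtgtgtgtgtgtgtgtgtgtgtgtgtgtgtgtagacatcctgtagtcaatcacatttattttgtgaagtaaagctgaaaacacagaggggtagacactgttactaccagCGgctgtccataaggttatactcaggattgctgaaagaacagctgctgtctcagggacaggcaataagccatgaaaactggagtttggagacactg
Rchy1 chr5:91829851-91830150: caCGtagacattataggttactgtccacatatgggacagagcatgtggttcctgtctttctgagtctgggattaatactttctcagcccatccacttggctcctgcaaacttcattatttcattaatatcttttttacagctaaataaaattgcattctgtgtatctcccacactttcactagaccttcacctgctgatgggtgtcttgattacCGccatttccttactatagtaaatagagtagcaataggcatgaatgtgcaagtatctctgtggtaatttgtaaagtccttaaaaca
Aida chr1:183299101-183299400: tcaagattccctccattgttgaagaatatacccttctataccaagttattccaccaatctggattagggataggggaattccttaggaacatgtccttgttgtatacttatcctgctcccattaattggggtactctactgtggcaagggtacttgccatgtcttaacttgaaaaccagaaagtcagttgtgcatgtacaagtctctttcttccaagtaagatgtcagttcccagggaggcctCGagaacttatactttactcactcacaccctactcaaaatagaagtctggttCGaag
Cdk8 chr5:146261101-146261400: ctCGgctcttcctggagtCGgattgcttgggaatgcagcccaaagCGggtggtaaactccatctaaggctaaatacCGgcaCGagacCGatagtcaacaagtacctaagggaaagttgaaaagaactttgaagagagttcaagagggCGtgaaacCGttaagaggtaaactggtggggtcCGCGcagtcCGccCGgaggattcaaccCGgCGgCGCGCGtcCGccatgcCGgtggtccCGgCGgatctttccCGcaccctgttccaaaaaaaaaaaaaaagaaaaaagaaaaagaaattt
Gal3st1 chr11:3983601-3983900: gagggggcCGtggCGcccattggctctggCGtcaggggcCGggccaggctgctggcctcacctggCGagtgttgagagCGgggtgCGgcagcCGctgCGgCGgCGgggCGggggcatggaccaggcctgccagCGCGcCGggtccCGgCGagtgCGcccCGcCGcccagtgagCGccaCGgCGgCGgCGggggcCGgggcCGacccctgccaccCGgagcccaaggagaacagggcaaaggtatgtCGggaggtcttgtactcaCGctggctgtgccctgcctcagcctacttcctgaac
Cdh3 chr8:106511351-106511650: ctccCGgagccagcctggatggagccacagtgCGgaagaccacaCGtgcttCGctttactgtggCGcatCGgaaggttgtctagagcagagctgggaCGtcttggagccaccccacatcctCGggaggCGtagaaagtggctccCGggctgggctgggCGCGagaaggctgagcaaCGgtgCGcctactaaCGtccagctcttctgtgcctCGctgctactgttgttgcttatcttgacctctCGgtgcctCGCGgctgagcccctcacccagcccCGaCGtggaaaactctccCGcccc
The windows near Adgb and Rchy1 and in Aida held 1, 2 and 2 CpGs, whereas those of Cdk8, Gal3st1 and Cdh3 held 22, 30 and 22. The sparse kind was the more usual. The median member had 8 CpGs per kb and a ratio of observed to expected CpG of 0.175, close to the 8.68 CpGs per kb and the ratio of 0.187 of regions above 1.5 kb, which are called longer regions here. Among the 500-bp steps of which the regions are built, 9 of 1712 in short both-age regions (0.526%) and 2 of 1025 in short young-state regions (0.195%) were CpG-rich (at least 50% GC and an observed to expected ratio of at least 0.6), against 0.758% of steps in longer regions and 0.739% of steps outside all regions.

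The deposited table gives each region a state, which names the ages in which it was called. Of the 1372 short regions, 763 were listed for both ages, 609 for young alone and 0 for old alone. Of longer regions, 25799 were listed for both ages, 240 for young alone and 2 for old alone. Short regions thus made up 609 of the 849 autosomal regions of the young state. The 3 possible lengths were evenly filled, with 458 regions of 0.5 kb, 462 of 1.0 kb and 452 of 1.5 kb. Just inside the length limit, the regions of 1.5 kb held a median of 10.3 reads per young library and 6.33 per old library, and the 649 regions of 2.0 kb just outside it held 13.7 and 8.67. The states were assigned from these same libraries, so a difference between ages in a young-state region is a description of how that state came about and no independent test of age.

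The states differed first in where the regions lay. Of the 609 young-state regions, 394 (64.7%) abutted another H3K27me3 region at 1 end with no base between, and are called edges here. A further 145 (23.8%) abutted a region at both ends, and are called bridges. The remaining 70 (11.5%) were detached. All 394 neighbours of edges and all neighbours of the 145 bridges were listed for both ages. By contrast, 665 of 763 short both-age regions (87.2%) were detached, 81 were edges and 17 were bridges, and the 98 attached ones all touched a young-state region. Longer young-state regions were also mostly attached. Of these 240, 123 (51.2%) were edges, 65 (27.1%) were bridges and 52 (21.7%) were detached.

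As listed, young-state short regions were mostly places at which a domain reached further, or had no gap, in young cells. The neighbour of an edge had a median length of 8.5 kb, with a range of 0.5 to 355.5 kb, and it was longer than 1.5 kb for 358 of 394 edges. A bridge and its neighbours spanned a median of 21 kb and at most 231 kb, and both neighbours were longer than 1.5 kb for 96 of 145 bridges. Domains of 100 kb or more were the neighbours of 20 edges and 6 bridges. Since the table lists each state as a region of its own, a bridge of 0.5 kb divides on paper what is continuous in the young calls.

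Short regions of both ages also lay near longer ones. The gap to the nearest longer region was 10 kb or less for 443 of 763 both-age regions (58.1%) and for 553 of 609 young-state regions (90.8%), while 18.8% of autosomal bases outside longer regions lay that close. At 50 kb or less the shares were 91.1%, 96.7% and 44.9%. The median gap of both-age regions was 8 kb, with quartiles of 3 and 21 kb, and 68 of them lay more than 50 kb from any longer region.

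**Figure D1:**
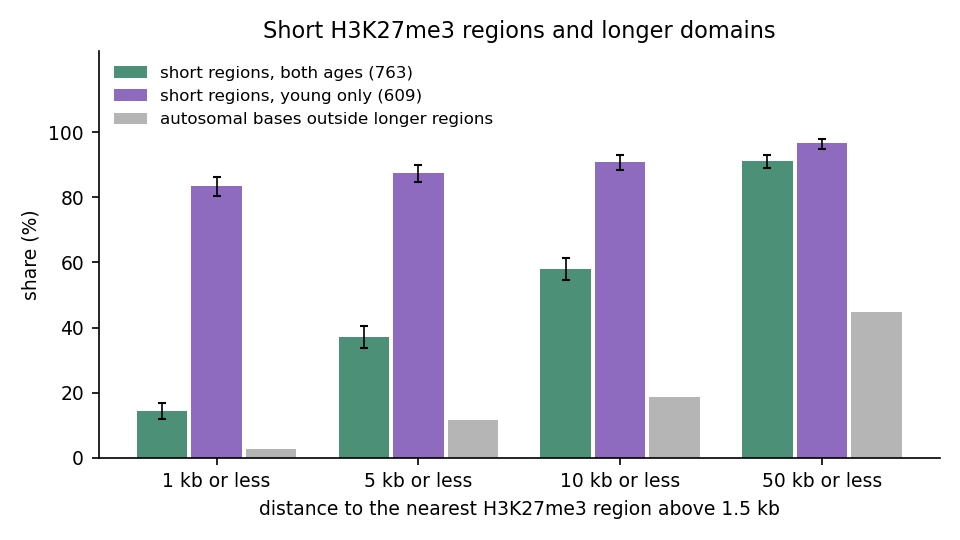
Share of short H3K27me3 regions (vertical axis, %) at or below 4 distances from the nearest region above 1.5 kb, with the same share of autosomal bases in grey; error bars are 95% Wilson intervals and cover counting error only. Within 10 kb lay 58.1% of both-age regions, 90.8% of young-state regions and 18.8% of bases.

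The 4 members farthest from longer domains lay 211 to 1465 kb from the nearest protein-coding TSS. A young-state region near Mmp16, a membrane-bound matrix metalloproteinase, was 1602.5 kb from the nearest longer region (chr4:17641001-17642000). Young replicates 1 to 3 held 15, 9 and 3 of its reads and old replicates 1 to 3 held 1, 0 and 1. A second member near Mmp16, of both ages, was 1047 kb away (chr4:18448501-18450000) and held 12, 12 and 12 reads in young and 4, 4 and 9 reads in old libraries. The both-age member nearest to Slc10a2, the bile acid transporter of the ileum, was 867.5 kb away from a longer region and held 7, 3 and 6 against 2, 1 and 2 reads. The fourth, nearest to Neto1, an auxiliary subunit of kainate receptors, lay 692.5 kb away and held 28, 18 and 19 against 22, 15 and 19 reads, and was the only one of the 4 whose mean density was not lower in old (1.63 and 2.06 RPKM in young and old).

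Relative to genes, short regions were mostly intergenic. The midpoint lay inside a protein-coding gene for 454 of 1372 members (33.1%), against 33.5% of longer regions and 41.3% of autosomal bases. Of the members, 376 (27.4%) lay in introns without touching an exon, 60 (4.37%) touched a coding exon and 18 (1.31%) a UTR but no coding exon. The nearest protein-coding TSS was more than 100 kb away for 538 members (39.2%) and for 27.9% of longer regions. Promoter windows of 1 kb on either side of a protein-coding TSS were touched by 39 members (2.84%), against 8.05% of regions of 2.0 to 5.0 kb and 22.1% of all longer regions, and such windows cover 2.13% of autosomal bases. A longer region touches a window more easily, so these shares are not comparable base for base.

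The 39 promoter members held a median of 7.33 reads per young library and 2.67 per old library, next to 7.33 and 2.33 over all members. Of the 6 with the highest observed to expected CpG ratio, 4 were young-state edges or bridges. The member over a TSS of Gal3st1, which makes the myelin lipid sulfatide, had a ratio of 0.651 (chr11:3983501-3984000) and held 1, 4 and 4 reads in young and 1, 1 and 2 reads in old libraries, and its groups overlapped. A bridge of 1.0 kb at Cdh3, the gene of P-cadherin (chr8:106511001-106512000), held 9, 9 and 4 reads in young and 2, 1 and 0 reads in old libraries. Its groups did not overlap, but it was not called (limma, adjusted p = 0.17). The bridge of 0.5 kb beside the TSS of Syt17, a synaptotagmin family member, held 0, 6 and 4 against 0, 0 and 0 reads. Near Ncoa5, a nuclear receptor coactivator, an edge held 2, 2 and 0 against 2, 0 and 0 reads. The both-age promoter members were those of Gls2, a glutaminase, with 15, 8 and 11 against 13, 9 and 10 reads, and of the predicted gene Gm21188, with 13, 18 and 15 against 13, 3 and 2 reads.

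Several long genes held more than 1 member. Of 350 protein-coding genes with the midpoint of a short region inside them, 75 held at least 2 and 22 at least 3. Ctnna3, which encodes a catenin of cell junctions, held 6, of which 5 were of both ages, and their summed reads were 54, 64 and 38 in young and 53, 15 and 22 in old libraries. Ntrk2, the receptor of brain-derived neurotrophic factor, Prdm16, a zinc-finger regulator of brown fat, and Tenm3, a teneurin of synaptic partner choice, held 5 each, of which 4 were of the young state in each case. All 5 in Ntrk2 and all 5 in Tenm3 were attached to another region. Col25a1, a transmembrane collagen of neurons, was the first by name of 4 genes that held 4 each. Its 4 members were of the young state, with 41, 32 and 28 against 12, 1 and 4 reads.

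Gene families were counted by the gene at the midpoint or at the nearest TSS. Neuronal adhesion and synapse genes took 56 of 609 young-state regions (9.20%), 36 of 763 both-age regions (4.72%) and 4.82% of longer regions. Developmental regulators took 3.28%, 2.49% and 2.69%, and chemoreceptor genes 0.493%, 1.05% and 0.799%. Neighbouring regions in 1 gene are not independent, so these shares are given without a test.

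H3K27ac regions rarely met the short ones. An H3K27ac region shared at least 1 base with 79 of 1372 members (5.76%), against 7.20% of regions of 2.0 to 5.0 kb, 15.8% of all longer regions and 17.4% of autosomal bases outside longer regions. The H3K27ac regions over both-age members numbered 48, with a median log2 difference between old and young of 0.04. The 30 over young-state members had a median of 0.15, and 22 of the 30 were higher in old, against 49.6% of all H3K27ac regions. limma called 0 of the 48 and 0 of the 30 at an adjusted p under 0.05, while 5 and 7 (10.4% and 23.3%) had an unadjusted p under 0.05, against 9.60% of all H3K27ac regions. Of all H3K27ac regions 0.0822% were called and the median difference was -0.003.

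How many reads the members held sets what can be said of a single one. In young replicates 1 to 3 the median member held 8, 8 and 6 reads, and in the old replicates 3, 1 and 3. No read fell in 11, 15 and 40 members in the young libraries and in 234, 446 and 249 in the old ones. Most of these empty members were of the young state, 8, 12 and 29 in young and 224, 372 and 228 in old libraries. Both-age members were empty in 3, 3 and 11 cases in young and in 10, 74 and 21 in old libraries. These medians and counts are not corrected for depth. The variance between replicates was 0.990 times that of pure counting error for both-age members in young and 1.12 times in old libraries. The spread of both-age members between replicates was thus about the size of counting error. The variance was 1.52 and 1.25 times counting error for young-state members, and 1.61 and 1.93 times for longer both-age regions. Longer both-age regions held medians of 79.7 reads per young and 56 per old library, against 8.33 and 5.67 for both-age members. At the same relative spread this measure rises with the number of reads, so it does not rank the classes by spread.

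Read density, in RPKM (mapped reads scaled by library size and by the region's own length), set the states apart. Both-age members held 0.819 ± 0.006 in young and 0.739 ± 0.038 in old libraries (SD, n = 3), and longer both-age regions held 1.07 ± 0.041 and 0.957 ± 0.061. Both-age regions of 2.0 to 5.0 kb, the nearest in size, held 0.749 ± 0.004 and 0.695 ± 0.016, so that the short ones were not the sparser of these classes. Young-state members held 0.869 ± 0.019 in young libraries and 0.193 ± 0.038 in old libraries, which is 4.56-fold lower in old. The fall was not particular to short regions. The 240 longer young-state regions held 0.801 ± 0.070 and 0.262 ± 0.041, which is 3.07-fold lower in old. Sequence outside all regions, sex chromosomes included, held 0.171 ± 0.012 and 0.206 ± 0.018. This level was taken from all mapped reads outside the regions, over the resolved bases of autosomes, X and Y outside them. Reads mapped to any other sequence would be counted in it, whereas the members are autosomal.

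Against that outside level, young-state members stood 5.10-fold higher in young libraries and, on average, at 0.932 of it in old libraries. The values of old replicates 1 to 3 were 0.848, 0.910 and 1.04, below the outside level in 2 libraries and just above it in old replicate 3. Both-age members stood 4.81-fold above it in young and 3.62-fold in old libraries, and longer both-age regions 6.31-fold and 4.69-fold. The density outside regions was higher in all 3 old libraries than in all 3 young ones (difference 0.035, two-sided exact permutation p = 0.10). With 3 libraries against 3, no exact permutation test can give a p below 0.10. The part of this background in the differences between ages was not tested.

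**Figure D2:**
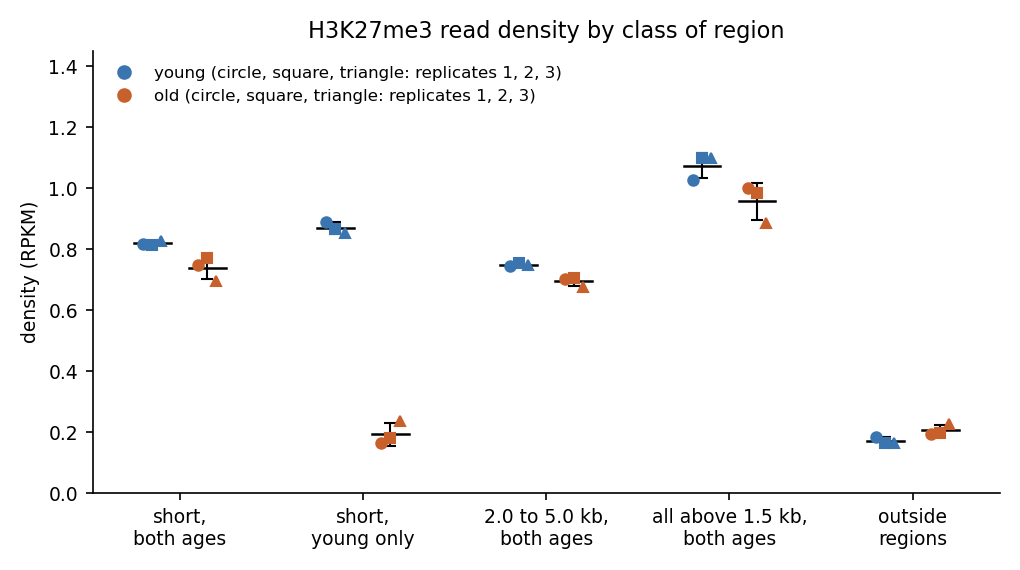
H3K27me3 read density in RPKM (vertical axis) in each library for 4 classes of region and for sequence outside regions, sex chromosomes included. Blue is young, orange is old, and black lines give the mean and SD of 3 libraries. Young-state short regions were at 0.869 in young and 0.193 in old libraries, next to the 0.206 outside regions, while the both-age classes stayed close to their young level.

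Short regions as a whole took less of the old libraries. Their share of mapped reads was 0.116%, 0.114% and 0.114% in the young libraries and 0.0725%, 0.0753% and 0.0718% in the old ones, and the groups did not overlap. The difference was -0.0415 percentage points. It is given without a p, because the 609 young-state members entered the table through calls in the young libraries and carried most of it. For both-age members alone the difference was -0.00684 percentage points (two-sided exact permutation p = 0.10). Longer regions also took less, at 61.7%, 66.0% and 66.0% of mapped reads in young and 60.2%, 59.1% and 53.4% in old libraries. Well-covered members were also counted with all libraries reduced to the 3622108 reads of the shallowest. At that depth 22.98% ± 0.203 of members would hold 5 or more reads in young libraries and 12.3% ± 1.27 in old ones (SD, n = 3), which differed by -10.7 percentage points with the young-state members included. For both-age members the shares were 26.96% and 21.9% (difference -5.06 percentage points, two-sided exact permutation p = 0.10), and for young-state members 17.98% and 0.2003%. Both-age regions of 2.0 to 5.0 kb were also lower in old, at 91.0% and 87.7% (difference -3.27 percentage points, two-sided exact permutation p = 0.10).

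The next comparison set the short regions against the longer ones within each library, which removes the level common to the mark. Over all members the log2 ratio of density, short over longer, was -0.28, -0.40 and -0.39 in young and -0.92, -0.83 and -0.76 in old libraries. The groups did not overlap and the mean differed by -0.48, which restates the calls of the young state and is given without a p. For both-age members the ratio was -0.33, -0.43 and -0.41 in young and -0.42, -0.35 and -0.35 in old libraries. These groups overlapped, and the difference of 0.02 lay within the spread of replicates (two-sided exact permutation p = 0.90). The sign of this small difference turned without young replicate 2, to -0.00334, and under a length limit of 1.0 kb, to -0.0284.

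The 68 both-age members more than 50 kb from a longer region gave ratios of -0.29, -0.36 and -0.29 in young and -0.37, -0.31 and -0.25 in old libraries. The difference was 0.005 (two-sided exact permutation p = 1), and it turned negative without young replicate 2 (-0.0195) or without old replicate 3 (-0.0269). Under a length limit of 1.0 kb it was 0.0781, with the groups apart (two-sided exact permutation p = 0.10), and at more than 10 kb in place of 50 kb it was 0.0701 (p = 0.30).

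The both-age members were then split by context and by length into 5 subsets, chosen after these densities were seen. For the 98 attached ones the log2 ratio was -0.37, -0.61 and -0.65 in young and -0.85, -0.76 and -0.74 in old libraries, a difference of -0.24 with all old values below all young ones. All of these touch a young-state region, so no p is given. For the 665 detached ones the difference was 0.04, with overlapping groups (two-sided exact permutation p = 0.20). The 173 both-age members of 0.5 kb had ratios of -0.27, -0.45 and -0.38 in young and -0.48, -0.50 and -0.51 in old libraries. These did not overlap (difference -0.13). Of the 173, 36 were edges and 13 were bridges, which all touch a young-state region, so no p is given. Those of 1.0 and 1.5 kb, with 24 and 21 edges and 2 bridges each, differed by 0.007 and 0.05. Their groups overlapped (two-sided exact permutation p = 0.90 and 0.40). Length and attachment were not tested apart. Being listed for both ages is itself a call on these libraries, so the both-age set was conditioned too.

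**Figure D3:**
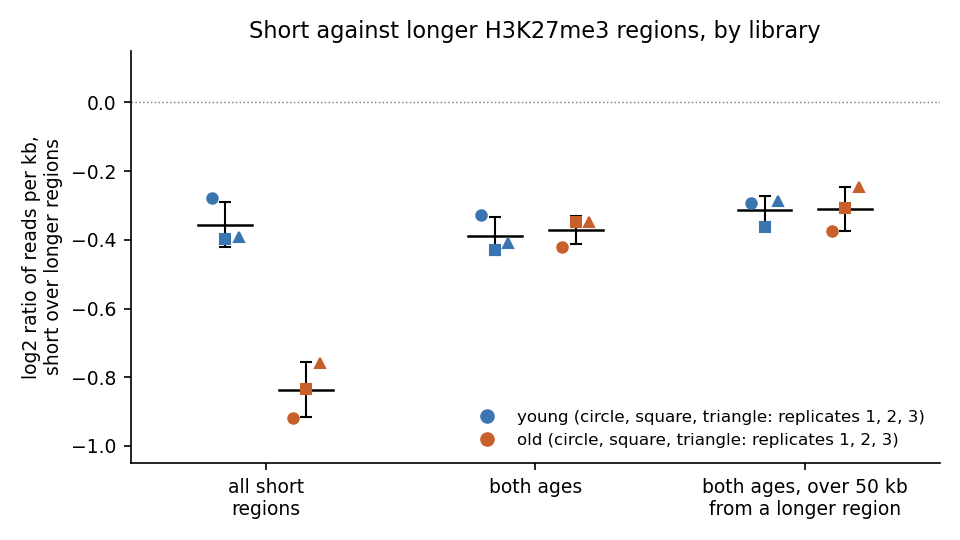
Log2 ratio of reads per kb in short over longer H3K27me3 regions (vertical axis) in each library, for all short regions, for those of both ages and for those of both ages more than 50 kb from a longer region; black lines give the mean and SD of 3 libraries. The ages parted over all short regions (means -0.36 and -0.84) and overlapped in the other classes.

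The domains beside the young-state members also lay lower in the old libraries. Of longer both-age regions, 590 touched a short young-state region. Their density was 1.10 ± 0.036 in young and 0.903 ± 0.054 in old libraries (SD, n = 3), against 1.07 ± 0.041 and 0.958 ± 0.062 for the 25209 regions that touched none. The log2 ratio of the former over the latter was 0.06, 0.02 and 0.05 in young and -0.06, -0.13 and -0.06 in old libraries. All old values lay below all young ones, with a difference of -0.13. This comparison was chosen after these densities were seen, and the neighbours were picked through calls made on the same libraries, so no p is given.

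Single regions were then tested with limma on log2 values of scaled signal plus 0.5, over all 28047 regions of the table. Of the 1372 members, 12 were called at an adjusted p under 0.05, all of them lower in old, beside 0.406% of all regions called lower and 0.082% called higher. All 12 were of the young state, 4 bridges, 7 edges and 1 detached region, and 0 of 763 both-age members were called. The young state was assigned from these same libraries, so the 12 calls are no independent test of age. An unadjusted p under 0.05 was reached by 50 of the 763 (6.55%) and by 3894 of all 28047 regions (13.9%). The quasi-likelihood test of edgeR called 26 members, 25 lower and 1 higher, beside 1.36% of all regions, and 11 of the 12 were among them. DESeq2 without its filter on low counts called 0 of 1372, with 284 (20.7%) at an unadjusted p under 0.05, and 70 of all 28047 regions, with 2208 (7.87%) at that p. The 12 calls by limma fell to 0 when any 1 of young replicates 1, 2 or 3 was left out, and rose to 43 without old replicate 2 and to 24 without old replicate 3.

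The median log2 difference between old and young was -0.09 for both-age members and -1.20 for young-state members, against -0.01 for all regions. Of both-age members 59.2% were lower in old, against 49.6% of longer regions. The 240 longer young-state regions had a median of -1.32, and limma called 33 of them, all lower in old. All old libraries lay below all young ones for 407 members (29.7%), against 10.6% of all regions, and for 47 (3.43%) all lay above, against 8.56%. Of these, 353 of the 407 and 0 of the 47 were of the young state. Among both-age members the shares were 7.08% below and 6.16% above, both under the shares of all regions. Both-age regions of 2.0 to 5.0 kb had similar shares, 6.25% below and 6.58% above. The width of the both-age distribution, with quartiles of -0.38 and 0.18, exceeded that of longer regions, with -0.15 and 0.15. Both-age regions of 2.0 to 5.0 kb, which hold fewer reads than most longer ones, lay between, with -0.23 and 0.22.

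**Figure D4:**
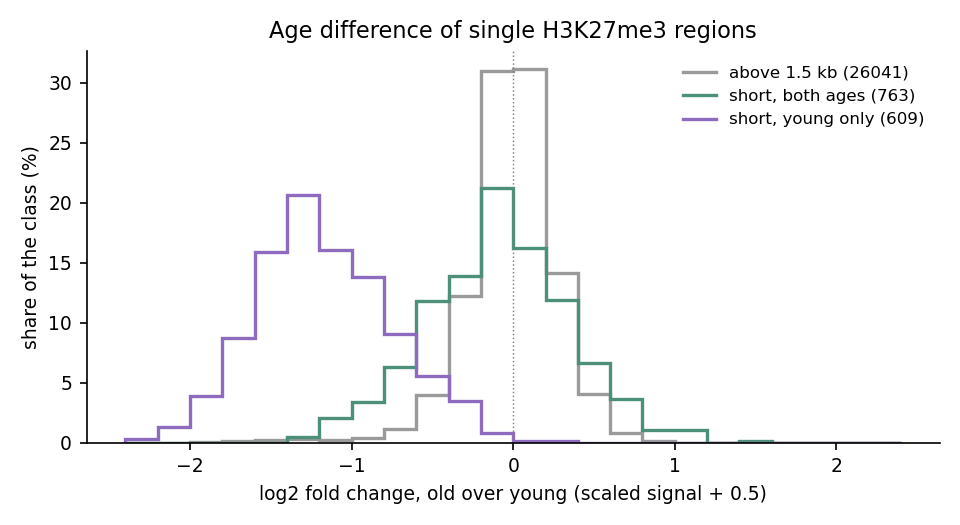
Distribution of the log2 fold change of old over young (horizontal axis, on scaled signal plus 0.5) in 3 classes of H3K27me3 region, as a share of each class (vertical axis, %). Both-age short regions centred a little below 0 (median -0.09) and longer ones at 0.002, and the short ones were spread more widely. Young-state short regions centred on -1.20.

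The members called with the largest falls lay at the margins of domains. All were of the young state, which was called on these same libraries. The adjusted p of each called member, here and below, therefore describes that state and does not test age independently. The edge near Adgb, the gene of androglobin (chr10:10204001-10205500), held 8, 13 and 9 reads in young and 1, 0 and 0 reads in old libraries. Its log2 change was -2.23 ± 0.44 (SE; limma, adjusted p = 0.028). With all old libraries at or under the floor of 3 reads per library, its density was at least 2.16-fold lower in old. The edge nearest to Rchy1, a ubiquitin ligase (chr5:91829501-91830500), was alike, with 9, 13 and 8 against 1, 0 and 0 reads and a log2 change of -2.23 ± 0.43 (SE; limma, adjusted p = 0.028). Both lay far from genes, 224 and 132 kb from the nearest protein-coding TSS.

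A pair of the called members lay in introns of neuronal adhesion genes. The bridge in Ntm, the gene of neurotrimin (chr9:29415501-29416500), lay 3.30 kb from a TSS and held 12, 10 and 13 against 4, 0 and 0 reads, a log2 change of -2.12 ± 0.46 (SE; limma, adjusted p = 0.045). It was the member that edgeR did not call (adjusted p = 0.050). The edge in Tenm3 (chr8:48579501-48580500) held 12, 13 and 8 against 1, 0 and 1 reads, and was at least 2.33-fold lower in old (limma, adjusted p = 0.028). In every one of these regions, the lowest young library held more than the highest old one.

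The other members named by the size of their fall were an intergenic edge near Snx13, a sorting nexin (chr12:35159501-35160500), and an intronic edge in Il17rd, an inhibitor of fibroblast growth factor signalling (chr14:27083001-27084000). They held 8, 16 and 9 against 1, 0 and 1 reads and 10, 14 and 6 against 2, 0 and 0 reads. Their log2 changes were -2.08 ± 0.43 and -2.06 ± 0.45 (SE; limma, adjusted p = 0.037 and 0.045). Across the 12 calls, young libraries held a mean of 9.33 to 15 reads per region, the falls ranged from 1.93 to 2.23 on the log2 scale, and adjusted p ranged from 0.028 to 0.046 (limma), all close to the threshold. At 10 of the 12 every old library was at 3 reads or fewer. Replicate counts of this size leave the fold of any 1 region poorly known.

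Among both-age members with a mean of at least 10 reads per library, of which there were 44, the extremes in both directions were not called by limma. The lowest was an intronic region in Rasgrf2, which encodes a Ras exchange factor, with 15, 13 and 13 against 11, 0 and 8 reads, and a log2 difference of -1.09 ± 0.53 (SE; adjusted p = 0.38). The intergenic region near Klf10, a zinc-finger factor induced by transforming growth factor beta, held 19, 20 and 11 against 4, 4 and 5 reads, and its difference was -1.01 ± 0.35 (SE; limma, adjusted p = 0.19). For the promoter member of Gm21188 the difference was -0.91 ± 0.39 (SE; limma, adjusted p = 0.29), and the groups overlapped once scaled for depth, as those of Rasgrf2 and Klf10 did not. Without old replicate 3 the Gm21188 value was -0.49. Without old replicate 2, in which it held 0 reads, the Rasgrf2 value shrank to -0.23.

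The highest differences were those of regions in Fbxw4, an F-box protein gene, at 0.80 ± 0.31 (SE; limma, adjusted p = 0.24), in Aida, an axin-binding protein gene, at 0.76 ± 0.20 (SE; limma, adjusted p = 0.080), and near Slc38a4, an amino acid transporter gene, at 0.58 ± 0.32 (SE; limma, adjusted p = 0.44). They held 9, 10 and 8 against 17, 8 and 10 reads, 41, 49 and 29 against 61, 23 and 57 reads, and 16, 9 and 7 against 17, 6 and 11 reads. After scaling by the median of ratios over all regions, all 3 old libraries exceeded all 3 young libraries in each of these regions. In RPKM the groups of Slc38a4 overlapped, with young replicate 1 at 1.072 and old replicate 3 at 1.070. The Aida region (chr1:183298501-183300000) was the single member that edgeR called higher in old (adjusted p = 0.036), and limma called it when old replicate 2 was left out (0.84, adjusted p = 0.031).

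**Figure D5:**
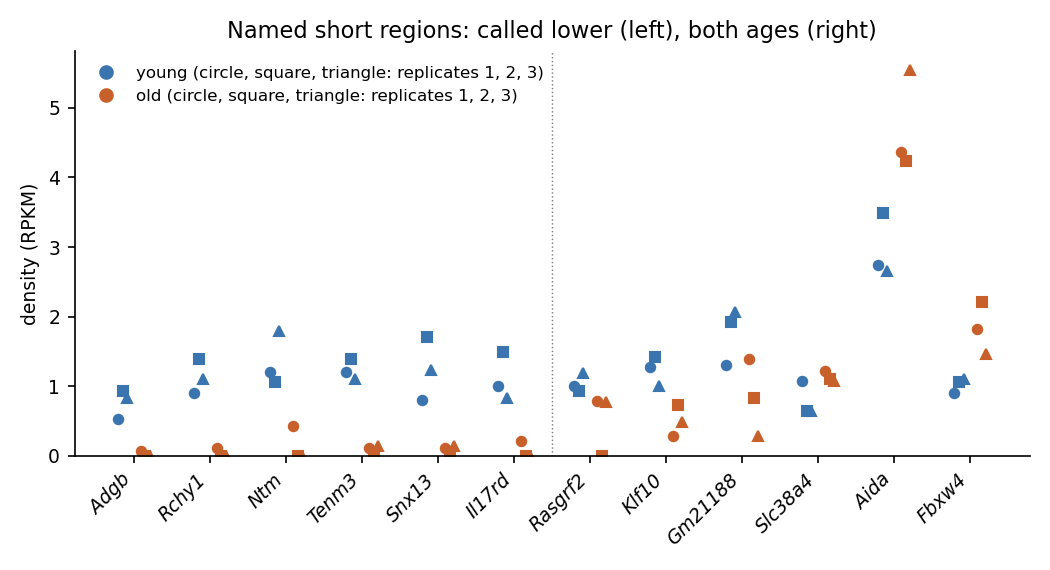
Read density in RPKM (vertical axis) in each library for the 6 called members with the largest falls, left of the dotted line, and for the 6 both-age members with the lowest and highest fold changes, right of it; names are those of the gene at or nearest to the region. In the left group every old value lies below every young one; in the right group Rasgrf2 and Klf10 are lower, and Aida and Fbxw4 higher, in all old libraries.

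The members with the most reads per kb differed from the rest in sequence and surroundings. The 6 densest were those in Aida, Cdk8, the kinase of the Mediator complex, and Fbxw4, and those nearest to Neto1, Gm21738 and Fcgr1, the gene of an Fc receptor. All 6 were of both ages and detached. Their mean density over the 6 libraries was 3.84 in Aida, 2.35 in Cdk8 (chr5:146260501-146262000), 1.85 near Neto1, 1.63 near Gm21738 (chr14:19415501-19416000), 1.47 near Fcgr1 (chr3:96372501-96373500) and 1.43 in Fbxw4 (chr19:45649501-45650500), all in RPKM. Of the 6, 5 lay wholly inside H3K27ac regions, where 79 of 1372 members shared a base with any, and these H3K27ac regions were of 1.5 to 74 kb.

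Words of 24 bases that occur more than once in the chromosomes made up 11.8% to 75.9% of these 6 members, with a median of 35.1%, against a median of 3.07% over all 1372. The lowest of the 6 was the Cdk8 member. Copies in sequence outside chromosomes 1 to 19, X and Y were not counted, so these shares may be too low. Soft-masked repeats covered 92% of the member near Gm21738 and 92.1% of the member near Fcgr1, where the median member had 17.0%. The Aida member also spans bases that are unresolved in GRCm38. Reads from other copies of a repeated sequence could be placed in such regions, and their part in these densities and in the higher old values in Aida and Fbxw4 was not tested. Repeated words also made up 72.8% of the promoter member of Gm21188, and their part in its lower old values was not tested. In the 6 called members with the largest falls 0.205% to 27.2% of words were repeated, and 0 of those 6 touched an H3K27ac region.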

How the data were processed

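H3K27me3 and H3K27ac CUT&RUN of young and old mouse MSCs was analysed from 2 deposited tables, 1 per mark, with 3 libraries per age and mark grouped by their labels. The authors' signal values are named RPKM, but the deposited signal is reads scaled to the mapped total and divided by a constant 0.5 kb, whatever the region's length: 100% of values in every column were whole numbers of reads (tolerance 0.001 reads), from which reads and library totals (3622108 to 9947515 for H3K27me3) were recovered. Per the submitters' processing notes, mm10 (GRCm38), Bowtie2 and Picard were used, with no roles or versions; the caller is not given in the sources used here. Regions lie on a grid of 500 bp. Of columns with values per sample, 0 were left unused. Yeast DNA added at the stop step was not analysed here.

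Members and gene families were chosen with earlier results of these data known. Density was computed as RPKM with each region's own length. Regions were annotated with GENCODE vM21 basic, and sequences were read from GRCm38.p6 of RefSeq. Words of 24 bases were counted on both strands of chromosomes 1 to 19, X and Y. Signal was scaled by the median of ratios, which sets the typical region to no change (medians over all regions were -0.13 before and -0.01 after on the log2 scale), a pseudocount of 0.5 was used, and limma 3.58.1 was fitted to log2 values (trend, robust, R 4.3.3) over 28047 regions. No filter was applied. Fold changes on the scale of log2(signal + 0.5) understate those of regions with few reads. edgeR 4.0.16 and DESeq2 1.42.0 were run on the recovered reads, and all 3 tools were tested on simulated data. For values per library, exact permutation tests (two-sided) were used. Intervals are 95% Wilson intervals, and they and the floor of 3 reads cover counting error only. Named regions were the 6 called ones with the largest change in each direction with groups apart, the 6 densest, the 6 CpG-richest at promoters, the 4 farthest from longer regions, the 3 highest and 3 lowest both-age ones with at least 10 reads, and the 6 genes holding most members, of which 1 is not reported here. Coordinates of members on 1 chromosome are not reported here.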

Additional observations from a re-analysis of the deposited data

How the results depend on the processing

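The number of short regions called (12) depended on the processing. It was 97 on the signal as deposited, 0 with a pseudocount of 0.1, 21 with a pseudocount of 2, 0 of the 740 members with a mean of 5 or more reads, 25 without variance trend and robust moderation, 26 and 29 with edgeR (TMM and RLE), 0 with DESeq2 without its filter on low counts (chosen after seeing the data) and 0 among both-age members. With that filter DESeq2 left 1 of 1372 members with an adjusted p, so it gave no count. Leaving out 1 library gave 0 to 43 calls. TMM scaling, scaling on longer regions, length limits of 1.0 and 2.0 kb and omission of old replicate 1 stayed within 1.5 times. With the replicate block the count was 28, and the block turned no other direction. The labels do not say whether the numbers pair young with old libraries. Same-numbered deviations were hardly correlated (0.02, 0.04 and -0.08), and 1 of 3 young libraries matched its own number best, which does not settle the pairing. The small ratio of both-age to longer regions (0.02) turned to -0.00334 without young replicate 2 (-0.00334 to 0.0483 over all omissions), to -0.0284 at a limit of 1.0 kb and, in subsets chosen after seeing the data, to -0.24 for attached members and -0.13 for members of 0.5 kb. That of isolated regions (0.005) ranged from -0.0269 to 0.0370 over the omissions, with -0.0195 without young replicate 2 and -0.0269 without old replicate 3, and was 0.0781 at a limit of 1.0 kb and 0.0701 at more than 10 kb. The causes were not tested. Shares moved with their definitions: within 10 kb of a longer region, 72.6%, to 59.4% at 5 kb, 43.5% where longer means above 10 kb, 79.5% for members up to 1.0 kb and 58.1% for both-age members; inside a gene, 33.1%, to 43.1% with any gene type; at promoters, 2.84%, to 10.9% at 5 kb and 6.34% with any TSS; over H3K27ac, 5.76%, to 10.5% within 1 kb.

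With medians of 1 to 8 reads per library, a change in a single short region was detectable only if large. The 3 libraries per age cannot reach an exact p below 0.10.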
